A study of Mus musculus with 6 samples.

Results

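The proteasome genes described here are the 44 protein-coding genes of the constitutive proteasome and of its regulators in the mouse line mDE6, of 22032 genes listed in all. They were chosen by symbol: Psma1 to Psma8, Psmb1 to Psmb7, Psmc1 to Psmc6, the Psmd genes, Psme1 to Psme4, Psmf1 and Psmg1 to Psmg4, leaving out the immunoproteasome genes Psmb8, Psmb9 and Psmb10. The symbols alone set the membership, though the set was picked for study with earlier results of these data known. Libraries were made from total RNA of mDE6 cells, 3 from cells with the control hairpin (shControl) and 3 from cells in which a short hairpin RNA targets Arl4c, the gene of a small GTPase (shArl4c). The labels give no tissue of origin, no hairpin sequence and no treatment beyond the hairpins, and they tell apart 1 Arl4c hairpin group, so less Arl4c and other effects of that hairpin cannot be told apart. Whether each library came from its own culture is not stated, and the spread that the p-values rest on may therefore be technical.

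The proteasome is the protease that degrades proteins tagged with ubiquitin. Its barrel-shaped core particle (20S) is built of rings of alpha subunits, which gate the entrance, and rings of beta subunits, some of which carry the proteolytic sites. The core is opened by regulatory particles: the 19S cap, whose ATPases unfold the substrate and whose other subunits bind and remove ubiquitin, or the ring-shaped activators PA28 and PA200. Dedicated chaperones assemble core and cap, and in many mammalian cells the transcription factor NRF1 (gene Nfe2l1) raises the subunit genes together when proteasome activity falls. Interferons induce PA28 alpha and beta and the beta subunits that form the immunoproteasome.

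Values are the deposited CPM, reads of a gene relative to a library size adjusted by a factor of 0.981 to 1.03 per library, and depth ran from 12316770 to 14976113 reads per library. All 44 genes reached the minimum for testing, a mean of 1 CPM, as did 14740 genes in all. Psma8 had the lowest mean of the 44 and Psmg4 the next. Arl4c was lower in all shArl4c libraries, at 6.75 to 7.42 CPM against 20.1 to 21.0 CPM in shControl (limma adjusted p = 2.08e-10). Of the markers looked up, 6 mesenchymal genes summed to 30349 to 31761 CPM in shControl and 18267 to 19105 CPM in shArl4c. Most of that sum was Col1a1 and Col1a2, which fell, as did Prrx1, while Vim and Twist1 did not pass and Pdgfrb rose (log2 difference 0.16, limma adjusted p = 0.00288). The epithelial genes Cdh1, Krt5, Krt14, Krt8 and Krt18 summed to 1.03 to 1.65 and 1.20 to 2.25 CPM. Epcam and the enamel genes Amelx, Ambn, Enam, Amtn and Odam were not among the listed genes. Library shArl4c 3 stood apart from its group: the chi-square of recovered reads over genes, divided by its degrees of freedom (1 is sampling noise), was 5.74 against shArl4c 2 and 4.87 against shArl4c 4. It was 1.54 between shArl4c 2 and 4 and 1.78 to 2.30 between shControl libraries. In RNA from whole cultures, a change in the mix of cells and a change in RNA per cell cannot be told apart.

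Of the 32 members that encode subunits of the core and cap, 22 did not pass the test, 8 rose and 2 fell. The cap genes Sem1 and Adrm1 fall outside the symbol rule and are given with the related genes. Of the 12 activator, inhibitor and assembly chaperone genes, 6 rose, 2 fell and 4 did not pass. Of the 44 genes, 14 were higher in shArl4c, 4 were lower and 26 did not pass limma's test at an adjusted p under 0.05. The 18 that changed are 40.9% of the members, near the 36.9% of all 14740 tested genes that were called. By direction, 31.8% of the members were higher against 18.9% of all tested genes, and 9.09% were lower against 18% of all. The median log2 difference of CPM + 1 (shArl4c minus shControl) was 0.10 for the members and 0.01 for all tested genes. The members ran from -0.51 for Psmg3 to 0.67 for Psme1. This scale understates changes of low genes: for Psmb9, outside the 44, it gave 0.86 where edgeR gave 1.32. The groups did not overlap for 20 members, shArl4c being higher for 15 and lower for 5. Over all tested genes, 24.3% were separated with shArl4c higher, 22.5% with shArl4c lower and 46.8% in either direction. The number of higher members depends on single libraries, on the tool and on the scaling. It was 25 without shArl4c 3, 9 without shControl 2, shControl 3, shArl4c 2 or shArl4c 4, and 9 with edgeR or DESeq2 on the recovered reads. With values scaled to the plain library size it was 20, and with median-of-ratios scaling 11. In either direction, 5758 and 5341 of all tested genes were called with these scalings, against 5445 in the reported fit. The members called in either direction numbered 24 and 15, against 18. Without shControl 2, shControl 3, shArl4c 2 or shArl4c 4, 4347, 4511, 4783 and 4545 of all tested genes were called. The members called numbered 13, 13, 14 and 13. For these scalings and for these left-out libraries, the share of all genes called higher was not computed. The shares of all genes called higher were 23.8% without shArl4c 3, 17.7% with edgeR and 13.6% with DESeq2. The lower members numbered 4 in these 3 fits, beside 21.4%, 18.8% and 14.3% of all genes. Named below as stable are the 13 members, 9 higher and 4 lower, that were called in the same direction under each of 18 alternative settings. Among the 18, rescaling the reads with edgeR's TMM factors gave the reported fit again, so it was no separate check. The share of all tested genes that are stable in this sense was not computed. The word therefore describes single genes and does not set the members apart from other genes.

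**Figure D1:**
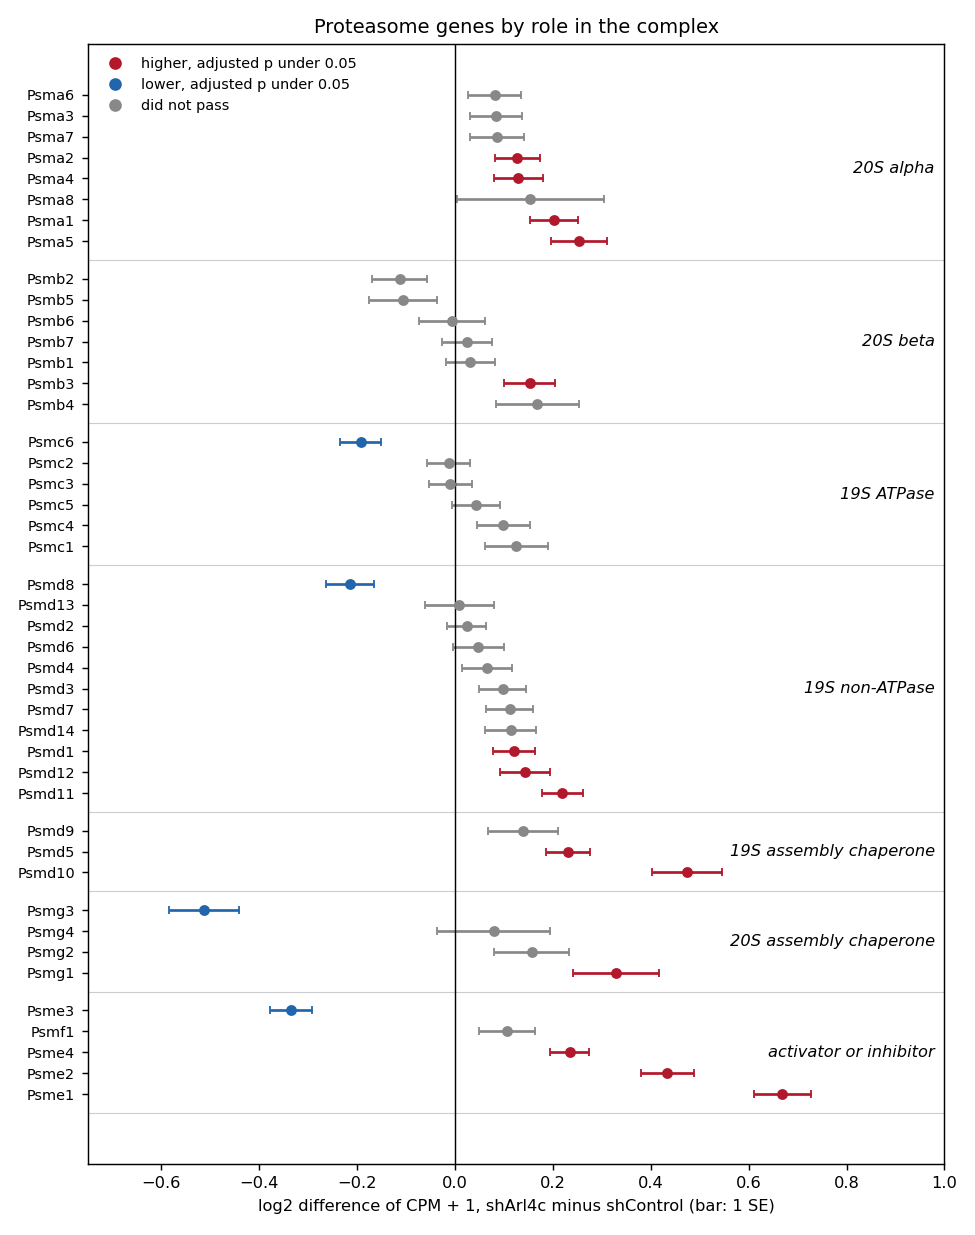
Log2 difference of CPM + 1 between shArl4c and shControl (x axis) for each of the 44 proteasome genes (y axis), grouped by role, with bars of 1 standard error and colours for the limma call. The core and cap genes among the 44 lie between -0.21 and 0.25. Psme1 at 0.67, Psmd10 at 0.47 and Psmg3 at -0.51 lie farther out.

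The activators of the core particle gave the largest rise among the members and moved in opposite directions. Psme1, encoding PA28 alpha, had 42.3, 45.2 and 43.7 CPM in libraries 1, 2 and 3 of shControl, against 73.6, 64.6 and 72.4 CPM in libraries 2, 3 and 4 of shArl4c, and this order is kept throughout. Every shArl4c library was above every shControl library, and Psme1 rose 1.61-fold, from 43.7 ± 1.45 to 70.2 ± 4.88 CPM (SD, n = 3; log2 difference 0.67, SE 0.06, limma adjusted p = 2.08e-08). Psme2, encoding PA28 beta, with which PA28 alpha forms a mixed ring, stood at 79.6, 87.9 and 88.1 CPM in shControl against 119, 107 and 121 CPM in shArl4c. It too rose without overlap, by 1.36-fold (log2 difference 0.43, SE 0.05, limma adjusted p = 2.91e-06). A close copy of this gene, Psme2b, was listed at a mean of 0.404 CPM in shControl and 0.399 CPM in shArl4c, so the split of reads between the copies is uncertain.

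The third member of the PA28 family fell. Psme3, encoding PA28 gamma, which forms a ring of its own in the nucleus, stood at 132, 139 and 137 CPM in shControl against 107, 106 and 109.97 CPM in shArl4c. The groups did not overlap, and it was 1.26-fold lower (log2 difference -0.33, SE 0.04, limma adjusted p = 4.04e-06). Psme4, encoding the large single-chain activator PA200, stood at 225, 226 and 229 CPM in shControl against 265, 261 and 274 CPM in shArl4c. It rose 1.18-fold with little spread within groups (log2 difference 0.23, SE 0.04, limma adjusted p = 9.56e-05). Psmf1, encoding the proteasome inhibitor-like protein PI31, had 43.1, 43.4 and 41.9 CPM in shControl and 44.3, 45.9 and 48.5 CPM in shArl4c. These values did not overlap either, but the difference did not pass (log2 difference 0.11, 95% interval -0.01 to 0.23, limma adjusted p = 0.157). Psme1, Psme2, Psme3 and Psme4 were among the 13 stable members, and without shArl4c 3 the 4 differences were 0.73, 0.49, -0.32 and 0.25.

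**Figure D2:**
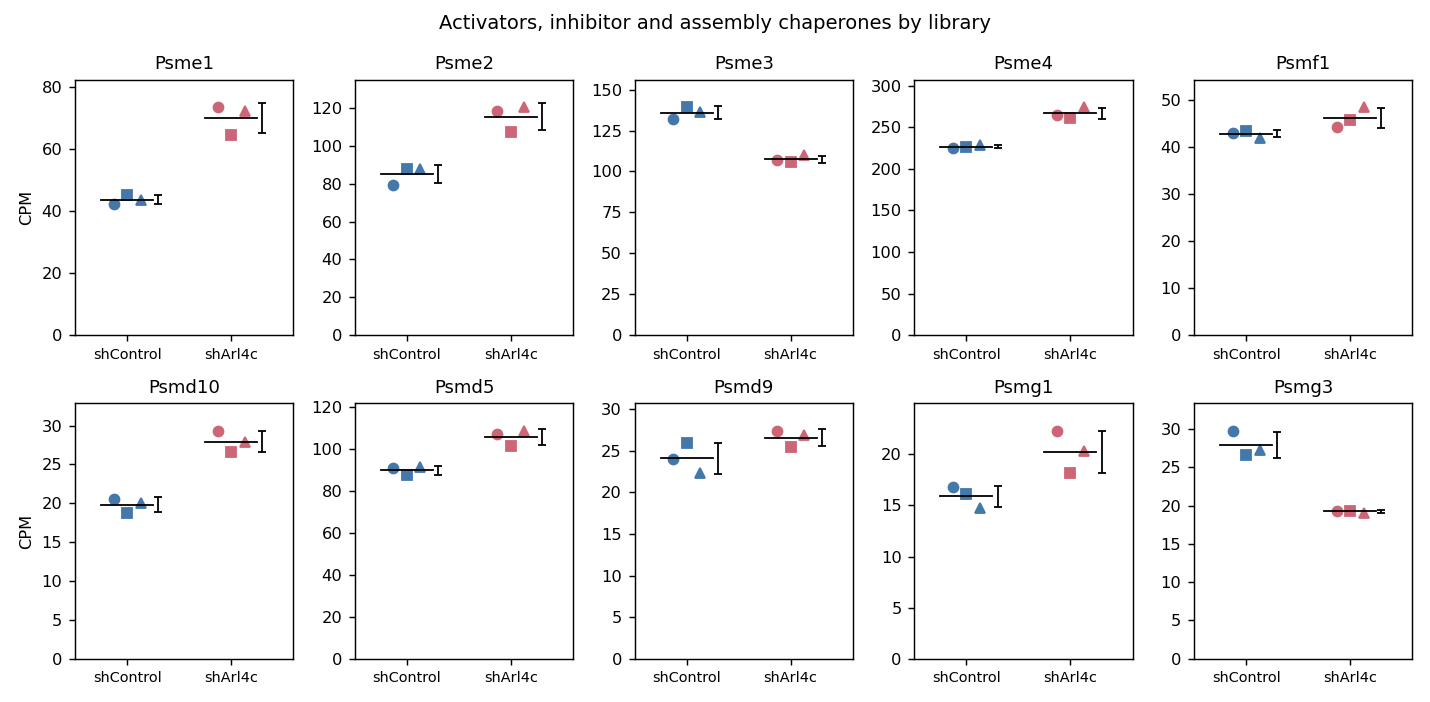
CPM (y axis, from 0) of the activators, the inhibitor and 5 assembly chaperones in each library, with circles, squares and triangles for shControl 1, 2 and 3 and for shArl4c 2, 3 and 4, a line at the group mean and a bar of 1 SD (n = 3). Psme1 and Psme2 are higher in every shArl4c library, Psme3 and Psmg3 are lower in every one, and the square of shArl4c 3 is the lowest of its group for several genes, Psme1, Psme2 and Psmg1 among them.

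The promoters of the 3 PA28 genes are printed because these genes moved apart. Each run covers 250 bases before and 30 bases after an annotated start, on the gene's own strand, from RefSeq on build GRCm38.p6, an older build than the GRCm39 named for the deposited values. Capitals mark matches on either strand to GAAA, any 2 bases and GAAA again (core of the interferon-stimulated response element, ISRE), TGACNNNGC (core of the antioxidant response element, which NRF1 and its relatives bind) or CCAAT. Psme1 lies at chr14:55578244-55578523 (plus strand), Psme2 at chr14:55591072-55591351 (minus strand, the first of 2 listed starts) and Psme3 at chr11:101315963-101316242 (plus strand).
Psme1: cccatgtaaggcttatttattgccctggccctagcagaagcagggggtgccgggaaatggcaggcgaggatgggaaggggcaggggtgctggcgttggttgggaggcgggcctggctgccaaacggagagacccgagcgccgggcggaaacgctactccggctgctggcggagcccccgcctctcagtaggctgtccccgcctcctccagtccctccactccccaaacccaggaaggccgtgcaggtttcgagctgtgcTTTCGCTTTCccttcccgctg
Psme2: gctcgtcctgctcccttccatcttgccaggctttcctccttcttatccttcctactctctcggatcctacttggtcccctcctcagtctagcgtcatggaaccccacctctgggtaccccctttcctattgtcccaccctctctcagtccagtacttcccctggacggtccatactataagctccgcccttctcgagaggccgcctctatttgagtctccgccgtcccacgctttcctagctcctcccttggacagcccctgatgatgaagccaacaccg
Psme3: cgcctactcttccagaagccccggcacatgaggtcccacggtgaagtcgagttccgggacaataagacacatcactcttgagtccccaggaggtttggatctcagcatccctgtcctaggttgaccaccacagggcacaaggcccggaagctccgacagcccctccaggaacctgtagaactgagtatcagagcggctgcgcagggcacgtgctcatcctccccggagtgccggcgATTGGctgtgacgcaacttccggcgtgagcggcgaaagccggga
Psme1 held 1 ISRE core match, from base 10 to base 19 after its start, Psme2 held none of the 3 motifs and Psme3 held a CCAAT match 14 to 10 bases before its start. Windows were found for 36 of the 44 members. The ISRE core matched in 5 of these 36 (Psme1, Psmb3, Psmd4, Psmd9 and Psmg4), 13.9%, and in 3.80% of 27025 genes with a window of the same length. Of these 5, Psme1 and Psmb3 were called higher and the other 3 did not pass. Of 24 related genes with a window, Psmb9 among them, 0 held an ISRE core match. The motif spellings were settled after values were seen and other spellings had been tried. The shares of members and of all genes are therefore no test. CCAAT matched in 12 members, 33.3%, against 39.7% of all. A match is a description of the letters and not evidence of binding.

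Assembly chaperones changed in both directions too. Psmg1 to Psmg4 encode the PAC proteins that assemble the alpha ring, working in the pairs PAC1 with PAC2 and PAC3 with PAC4. Psmg3 stood at 29.7, 26.6 and 27.3 CPM in shControl against 19.3, 19.3 and 19.1 CPM in shArl4c. The shArl4c values lay within a narrow range, all below shControl, and Psmg3 fell 1.45-fold, the largest fall of the 44 genes (log2 difference -0.51, SE 0.07, limma adjusted p = 9.84e-06). Its partner Psmg4 stood at 10.1, 7.73 and 9.52 CPM in shControl against 10.7, 8.92 and 9.34 CPM in shArl4c and did not pass (log2 difference 0.08, 95% interval -0.16 to 0.32, limma adjusted p = 0.644). Psmg1 rose, from 16.8, 16.1 and 14.7 CPM to 22.3, 18.1 and 20.3 CPM, 1.27-fold (log2 difference 0.33, SE 0.09, limma adjusted p = 0.00574). Its partner Psmg2 was above shControl in all shArl4c libraries by a log2 difference of 0.16 but did not pass (limma adjusted p = 0.12).

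Of the 3 chaperones of the 19S base, 2 rose. Psmd10, encoding gankyrin, which binds the ATPase encoded by Psmc4, stood at 20.6, 18.8 and 20.1 CPM in shControl against 29.3, 26.6 and 27.9 CPM in shArl4c. The groups were well separated, and Psmd10 rose 1.41-fold (log2 difference 0.47, SE 0.07, limma adjusted p = 2.78e-05). Psmd5, encoding the chaperone S5b, stood at 91.1, 87.6 and 91.3 CPM against 107, 101 and 109 CPM, a rise of 1.18-fold (log2 difference 0.23, SE 0.05, limma adjusted p = 0.000497). Psmd9, the third of them, had 24.0, 25.9 and 22.3 CPM in shControl and 27.4, 25.4 and 26.9 CPM in shArl4c, values that overlapped and did not pass (limma adjusted p = 0.149). Psmg3, Psmg1, Psmd10 and Psmd5 were stable across the alternatives. The promoter of Psmd10, the member with the largest rise outside PA28, is printed with its 3 CCAAT matches in capitals (chrX:140956682-140956961, minus strand, GRCm38.p6).
Psmd10: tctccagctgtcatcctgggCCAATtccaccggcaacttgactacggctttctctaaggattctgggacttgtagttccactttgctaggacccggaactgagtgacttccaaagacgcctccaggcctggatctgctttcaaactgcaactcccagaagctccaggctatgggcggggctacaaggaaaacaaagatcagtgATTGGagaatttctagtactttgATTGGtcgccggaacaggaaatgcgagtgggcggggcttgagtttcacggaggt

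Some alpha subunits of the core rose. Of the 8 Psma genes, 4 rose (Psma1, Psma2, Psma4 and Psma5), none fell and 4 did not pass, and all 8 differences were above 0, with a median of 0.13. Psma5 stood at 77.6, 73.6 and 73.1 CPM in shControl against 96.6, 81.2 and 90.8 CPM in shArl4c, 1.20-fold higher (log2 difference 0.25, SE 0.06, limma adjusted p = 0.00180). Psma1 stood at 73.7, 71.3 and 75.0 CPM against 86.7, 80.1 and 87.1 CPM, 1.15-fold higher (log2 difference 0.20, SE 0.05, limma adjusted p = 0.00288). In both, shArl4c 3 lay nearest to shControl without overlapping it, and both were stable. Psma2 and Psma4, with adjusted p of 0.0345 and 0.0485 in limma, passed in only 8 of the 18 alternatives each. Psma8, the alpha subunit of the testis proteasome, was at 2.73, 2.89 and 3.97 CPM in shControl and 3.56, 3.75 and 3.60 CPM in shArl4c, overlapping values that did not pass (limma adjusted p = 0.471). Psma3, Psma6 and Psma7 had log2 differences of 0.08, 0.08 and 0.09 and did not pass. Without shArl4c 3, 7 of the 8 were called higher, all but Psma8. The share of all tested genes called higher was then 23.8%, against 18.9% with all libraries.

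The constitutive catalytic subunits did not pass the test in the reported fit. Psmb5, which carries the chymotrypsin-like site, stood at 54.0, 54.9 and 52.1 CPM in shControl against 55.4, 43.9 and 50.8 CPM in shArl4c (log2 difference -0.11, 95% interval -0.25 to 0.04, limma adjusted p = 0.269). Psmb6, with the caspase-like site, stood at 115, 114 and 109.8 CPM against 121, 98.7 and 119 CPM (-0.01, interval -0.15 to 0.14, limma adjusted p = 0.963). Psmb7, with the trypsin-like site, stood at 145, 143 and 154 CPM against 161, 139 and 149.99 CPM (0.03, interval -0.08 to 0.13, limma adjusted p = 0.748). In all 3 genes the groups overlapped and shArl4c 3 was the lowest of the 6 libraries. Psmb5 passed as lower without shArl4c 2 (log2 difference -0.18, limma adjusted p = 0.0467). Without shArl4c 3 its difference was -0.02 and did not pass (limma adjusted p = 0.832). Of the structural beta subunits only Psmb3 was called, at 108, 103 and 101 CPM against 124, 106 and 118 CPM (log2 difference 0.15, SE 0.05, limma adjusted p = 0.0300). The groups of Psmb3 overlapped, and it passed in 11 of 18 alternatives and in neither edgeR nor DESeq2. Psmb2 had 76.2, 70.3 and 69.8 CPM in shControl and 69.3, 61.5 and 69.3 CPM in shArl4c, all below shControl, but did not pass (limma adjusted p = 0.134). Psmb1 and Psmb4, with log2 differences of 0.03 and 0.17, did not pass either.

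The inducible subunits that can take the place of those catalytic subunits, which are not among the 44 genes, had larger differences. Psmb8, which replaces Psmb5, stood at 3.62, 2.56 and 2.23 CPM in shControl against 11.5, 9.97 and 12.3 CPM in shArl4c, 4.02-fold higher (log2 difference 1.70, SE 0.14, limma adjusted p = 1.49e-08). Psmb10, which replaces Psmb7, rose 1.99-fold from 22.3, 22.6 and 19.7 CPM to 45.0, 39.9 and 43.8 CPM (limma adjusted p = 2.29e-09). Psmb9, which replaces Psmb6, rose 2.49-fold from 1.03, 0.874 and 1.57 CPM to 2.76, 2.92 and 2.98 CPM (limma adjusted p = 0.000400). For all 3 the groups were far apart, unlike the constitutive genes they pair with, though the difference between the paired changes was not tested. Psmb9 shares 212 exonic bases with Tap1 on the opposite strand in the older annotation, and Tap1 went from a mean of 10.97 to 23.7 CPM. Without strand, reads within those bases cannot be told apart. These are genes that leukocytes express strongly. The leukocyte genes Ptprc, Cd74, Lyz2 and Cd68 summed to 4.80 to 5.31 CPM in shControl and 6.75 to 8.02 CPM in shArl4c, with Ptprc, the defining one, at 0 to 0.148 CPM in every library. The monocyte marker Cd68 had means of 2.79 and 5.77 CPM and was called higher (limma adjusted p = 6.98e-05). It alone of these leukocyte genes had a higher mean in shArl4c. Lyz2 went from a mean of 1.24 to 1.03 CPM and did not pass (limma adjusted p = 0.552). Cd74 went from 0.933 to 0.574 CPM, below the level for testing. The part of such cells in these changes was not tested.

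**Figure D3:**
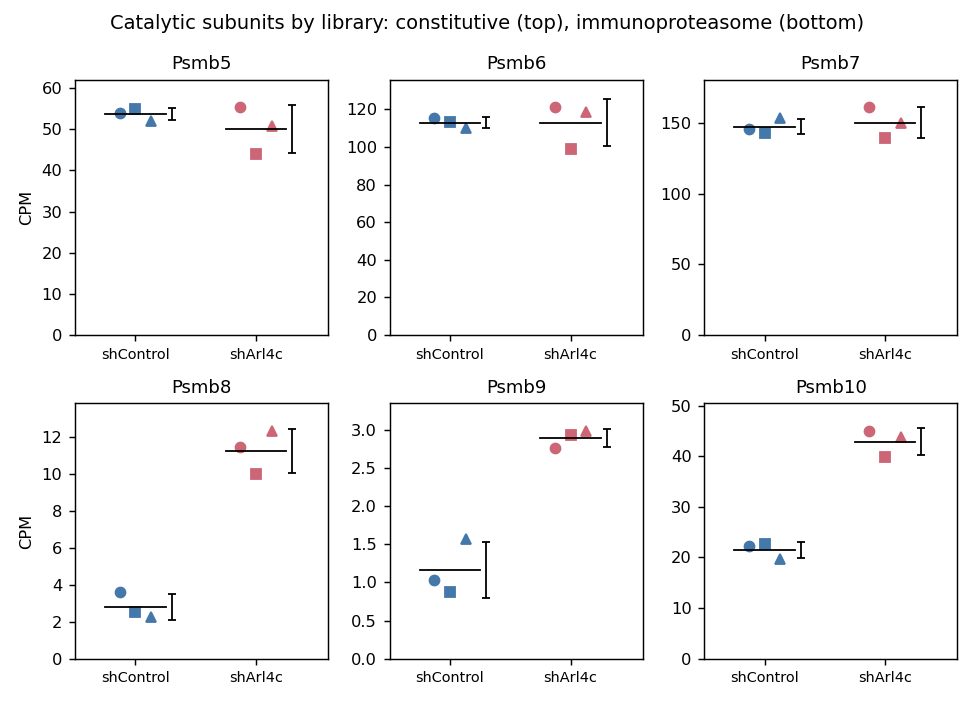
CPM (y axis, from 0) of the constitutive catalytic subunit genes Psmb5, Psmb6 and Psmb7 (top) and of the inducible genes that replace them, Psmb8, Psmb9 and Psmb10 (bottom), in each library, with circles, squares and triangles for shControl 1, 2 and 3 and for shArl4c 2, 3 and 4, a line at the mean and a bar of 1 SD (n = 3). The top row overlaps between groups, with the square of shArl4c 3 lowest, and the bottom row does not overlap.

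TGACNNNGC matched in the windows of 6 members (Psmb5, Psmb6, Psmc6, Psmd9, Psmd12 and Psme4), 16.7% of 36, against 13.0% of all genes with a window. Of these 6, Psmd12 and Psme4 were called higher, Psmc6 lower, and Psmb5, Psmb6 and Psmd9 did not pass. The windows of the catalytic genes Psmb5 (chr14:54617966-54618245, minus strand) and Psmb6 (chr11:70525107-70525386, plus strand) are printed, on build GRCm38.p6, because the match lay within 50 bases before the start in both.
Psmb5: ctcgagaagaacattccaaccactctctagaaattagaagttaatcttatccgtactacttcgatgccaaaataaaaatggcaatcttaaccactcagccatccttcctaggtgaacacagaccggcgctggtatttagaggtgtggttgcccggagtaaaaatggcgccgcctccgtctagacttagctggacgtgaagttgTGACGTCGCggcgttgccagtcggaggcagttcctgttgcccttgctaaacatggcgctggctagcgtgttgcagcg
Psmb6: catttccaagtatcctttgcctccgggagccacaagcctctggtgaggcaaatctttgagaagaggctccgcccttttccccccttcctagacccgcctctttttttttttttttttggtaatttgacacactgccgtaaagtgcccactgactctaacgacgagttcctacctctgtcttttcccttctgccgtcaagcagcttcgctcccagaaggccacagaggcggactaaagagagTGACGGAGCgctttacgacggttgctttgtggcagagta

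Of the 6 ATPases that form the ring at the base of the cap, 1 fell and 5 did not pass. Psmc6 stood at 128, 129.8 and 128 CPM in shControl against 112, 111 and 115 CPM in shArl4c, 1.14-fold lower without overlap (log2 difference -0.19, SE 0.04, limma adjusted p = 0.00107). Its ring partner Psmc3 stood at 157, 154 and 154 CPM against 158, 146 and 158 CPM, overlapping values that did not pass (limma adjusted p = 0.895). Psmc1 had 77.1, 82.2 and 77.2 CPM in shControl and 93.7, 76.5 and 89.0 CPM in shArl4c. Here 2 shArl4c libraries were above all shControl libraries and shArl4c 3 was below them, and the difference did not pass (0.13, limma adjusted p = 0.152) but did without shArl4c 3 (0.21, limma adjusted p = 0.000190). Psmc2, Psmc4 and Psmc5 had log2 differences of -0.01, 0.10 and 0.04 and did not pass.

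Of the 11 subunits of the cap that are not ATPases, 3 rose, 1 fell and 7 did not pass. Psmd11, encoding the lid subunit RPN6, stood at 200.4, 203 and 199 CPM in shControl against 244, 226 and 233 CPM in shArl4c, 1.17-fold higher without overlap (log2 difference 0.22, SE 0.04, limma adjusted p = 0.000319). Psmd8, encoding the lid subunit RPN12, went the other way, from 81.8, 82.5 and 80.01 CPM to 69.4, 66.8 and 74.2 CPM, 1.16-fold lower (log2 difference -0.21, SE 0.05, limma adjusted p = 0.00209). Both were stable. The scaffold gene Psmd1 and the lid gene Psmd12 rose by 0.12 and 0.14 (limma adjusted p = 0.0334 and 0.0328) and passed in 9 and 10 of 18 alternatives. Psmd13 had the largest p, at 55.3, 52.5 and 51.5 CPM against 59.7, 47.3 and 53.9 CPM, and its shArl4c values reached both above and below shControl. Psmd14, encoding the deubiquitinase of the lid, had a log2 difference of 0.11, the ubiquitin receptor gene Psmd4 one of 0.07 and the scaffold gene Psmd2 one of 0.02, and none of these 3 passed. Psmd3, Psmd6 and Psmd7 had 0.10, 0.05 and 0.11 and did not pass. In the older annotation Psmd13, Psmd1, Psmc3 and Psmb7 share exonic bases with the opposite-strand genes Sirt3, Htr2b, Slc39a13 and Nek6, as Psme1 does with Emc9.

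The spread of the members within shArl4c followed 1 library. For 40 of the 44 genes shArl4c 3 was the lowest of its group, 90.9%, against 43.3% of all tested genes. The summed level of the 7 beta subunit genes was 786, 762 and 770.2 CPM in shControl and 854, 718 and 823 CPM in shArl4c, so that shArl4c 3 lay below and the other 2 above all shControl libraries. The 8 alpha subunit genes summed to 660.4, 647 and 666 CPM against 761, 667 and 740.2 CPM, with shArl4c 3 close to the highest shControl library. The 5 activator and inhibitor genes summed to 522, 542 and 539 CPM against 609, 585 and 626 CPM, and here shArl4c 3 was above all shControl libraries. Across the 32 genes of core and cap, the median log2 difference from the shControl mean was 0.16 in shArl4c 2, -0.02 in shArl4c 3 and 0.13 in shArl4c 4, while over all tested genes it was 0.00, 0.02 and 0.01. Without shArl4c 3, 18 of the 32 were called higher, 2 lower and 12 did not pass, in place of 8, 2 and 22. Over all tested genes, 18.9% were called higher and 18% lower with all libraries, and 23.8% and 21.4% without shArl4c 3. That library also stood apart over all genes, as given above, and its part in the core and cap results beyond these values was not tested.

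**Figure D4:**
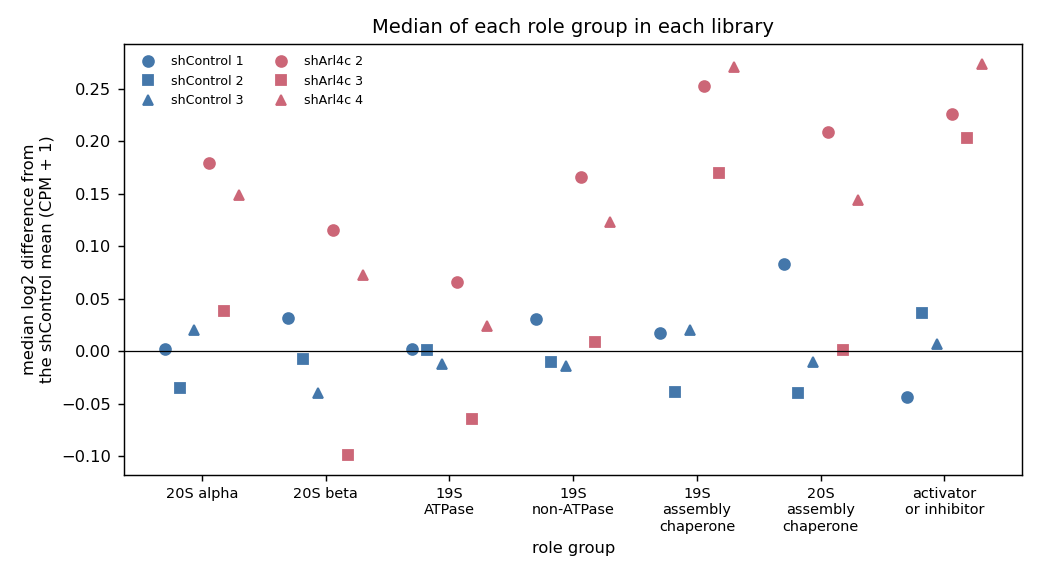
Median over the genes of each role group (x axis) of the log2 difference of CPM + 1 from the mean of shControl (y axis), 1 point per library. In the alpha, beta and non-ATPase groups shArl4c 2 and 4 lie above the shControl points. There shArl4c 3 lies just above them for alpha, below them for beta and among them for non-ATPase. In the activator and 19S assembly chaperone groups all shArl4c points lie well above.

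Genes that work with the proteasome went both ways. Of 33 related genes listed for subunits, assembly, control and ubiquitin delivery, 32 were in the table. Of these, 9 rose (Psmb8, Psmb9, Psmb10, Adrm1, Pomp, Zfand5, Uba1, Ubqln2 and Ubqln4), 8 fell (Nfe2l1, Ddi2, Sem1, Uba6, Rad23b, Vcp, Ufd1 and Ecpas) and 15 did not pass. The shares were 28.1% higher, 25% lower and 53.1% in either direction, against 18.9%, 18% and 36.9% of all tested genes. The median log2 difference of the 32 was 0.01. Nfe2l1, encoding NRF1, stood at 377, 389 and 396 CPM in shControl against 299.7, 277 and 302 CPM in shArl4c, 1.32-fold lower without overlap (log2 difference -0.40, SE 0.04, limma adjusted p = 3.61e-07). Ddi2, encoding the protease that cleaves NRF1 into its active form, stood at 128, 127 and 132 CPM against 111, 113 and 106 CPM, 1.17-fold lower (log2 difference -0.22, SE 0.04, limma adjusted p = 0.000395). Pomp, encoding the chaperone that matures the beta rings, had 98.4, 95.8 and 89.4 CPM in shControl and 109, 97.5 and 108 CPM in shArl4c, with shArl4c 3 among the shControl values, and passed (log2 difference 0.15, limma adjusted p = 0.0331) in this fit and in 10 of 18 alternatives. Nfe2l1, Ddi2, Psmb8, Psmb10, Zfand5, Uba6 and Ubqln2 passed in all 18, and Psmb9 in all 17 where it was tested. Sem1 and Vcp passed in 17. Adrm1, Uba1, Ubqln4, Rad23b, Ufd1 and Ecpas passed in 11, 13, 15, 14, 13 and 10 of the 18.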

How the data were processed

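RNA from 6 mDE6 samples was measured by sequencing. Per the labels' protocols, TRIzol and a Promega kit were used for extraction and a directional MGI kit for the libraries. The authors deposited 1 table of CPM values. Trimmomatic 0.38, RSEM 1.3.0, Bowtie2 and edgeR on GRCm39 are named, per the submitters' processing notes. Order, settings and strand use are not given in the sources used here. All deposited CPM values were whole multiples of what 1 read is worth (100%, tolerance 0.001), which gave back the reads. All 6 columns were mapped to a group by name, shluc as shControl, and to no single sample. Of 22032 identifiers, 21880 matched a symbol, 152 did not and 21 shared one.

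The 14740 genes averaging 1 CPM or more were fitted as log2(CPM + 1) with limma 3.58.1 in R 4.3.3, with trend and robust moderation, and p-values were adjusted over all of them (Benjamini-Hochberg, threshold 0.05). The alternatives were other pseudocounts, filters, scalings and variance models, each library left out, and edgeR 4.0.16 and DESeq2 1.42.0 on recovered reads. Among the scalings, TMM factors repeated the reported fit. The fits were tested on simulated data with 50 genes changed at each fold. At 1.25-fold, limma, edgeR and DESeq2 recovered 24%, 22% and 18% of them, and at 2-fold 96%, 94% and 90%. The simulated spread was assumed and far fewer genes changed than were called here, so power in these libraries may differ. Values per library are given for the catalytic genes, the 2 smallest p and the largest p in each role group, members against the main direction and listed related genes. Members and lists were chosen with earlier results of these data known. Psme4's library values, the motifs (after other spellings had been tried) and the printed promoters were chosen after values were seen.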

Additional observations from a re-analysis of the deposited data

How the results depend on the processing

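Arl4c and the 4 lower members kept their direction and side of the threshold in all 18 alternatives, and the median of the members was 0.07 to 0.15. The cause of the changes below was not tested. Of the 18 members called, 13 were called in the same direction in each alternative (9 higher and 4 lower). The matching share of all tested genes was not computed. Of the 26 others, 13 were called in at least 1 alternative and 13 in none. With array weights 29 members were called, 25 of them higher, against 18 and 14 in the reported fit, and over all genes 6885 were called against 5445. The higher members numbered 9 in limma without trend and robust moderation, in edgeR and in DESeq2. In either direction, 13 members were called in each of these fits. Over all genes, 4491, 5376 and 4108 were called. Leaving out 1 library gave 13 to 29 members called, of which 9 to 25 higher and 4 to 5 lower, with 29 and 25 without shArl4c 3. The added lower member was Psmb5, without shArl4c 2. Over all genes, 4347 to 6625 were called with 1 library left out. The higher members numbered 20 with plain CPM, 16 with quantile normalization and 11 with median-of-ratios scaling. In either direction, 24, 20 and 15 members and 5758, 5667 and 5341 of all genes were then called. No paired analysis was possible because the columns carry numbers that do not match the sample titles. With 3 libraries per group, the 95% intervals of the core and cap members that did not pass reached from -0.25 to 0.37 on the log2 scale, and to 0.47 for Psma8.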
